A study of Bombyx mori with 6 samples.

Results

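Homeobox, forkhead and other tissue identity factors of the silkworm, Bombyx mori, were followed in 6 RNA sequencing libraries, 3 labelled siUFBP1 and 3 labelled siNC. The members were taken by the words in their product descriptions: homeobox, homeotic, fork head, POU domain, T-box, GATA, LIM/homeobox, paired box, silk gland factor, runt, SOX or doublesex, with retroelement matches dropped. The words matched 147 gene models, of which 111 had at least 1 count in these libraries, out of 15294 gene models with any count. Of the 111 members, 88 also carried a Pfam name with a word for a domain of any of these families, and 23 did not. Whether it was the domain of the member's own family was not checked. Of the same 111, 3 matched by accident of wording, namely both polyhomeotic-like genes (KWMTBOMO00382 and KWMTBOMO03885) and the CCAAT-box factor subunit NF-YC (KWMTBOMO12108).

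These proteins bind DNA and set which genes a tissue uses. Hox genes and other homeobox genes lay out the body plan in the embryo, forkhead, GATA and SOX proteins act in the making of organs, and doublesex carries the last step of the sex determination pathway. In the silkworm, silk gland factor 1 (SGF1), a fork head protein, and silk gland factor 3 (SGF3), a POU domain protein, are known for binding the promoters of silk genes. The fat body, the tissue named in the labels, is the insect organ of storage and metabolism, where the forkhead protein FoxO passes on the state of insulin signalling.

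The siUFBP1 libraries were labelled as coming from animals or cells that received small interfering RNA against UFBP1, an endoplasmic reticulum membrane protein that helps to attach the small modifier UFM1 to other proteins, and the siNC libraries as having received a negative control RNA. The protocols describe larvae of the P50 strain on day 3 of instar 5, injected with 2.5 µg of either RNA and all given the baculovirus BmNPV (5 µL) 12 h later, with fat body taken at 24, 48 and 72 h. The same labels also name BmN, a silkworm cell line of ovarian origin, and its transfection, and give no harvest time, sex or pooling for any library. Nothing in them says that the libraries of a group came from separate animals or cultures, so p-values cover only how far these libraries scatter, which may be technical scatter.

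Libraries held 25570725 to 53204480 counts in siUFBP1 and 27100565 to 31760120 in siNC. Levels are given as counts per 1000000 (CPM), scaled to library size and composition by the trimmed mean of M values (TMM). On that scale 3 counts, the limit that a count of 0 allows, correspond to 0.0408 to 0.0906 CPM in siUFBP1 and 0.123 to 0.148 CPM in siNC. The UFBP1 transcript (KWMTBOMO13599) had 32.7, 34.4 and 34.6 CPM in siUFBP1 and 36.5, 31.1 and 34.2 CPM in siNC (log2 fold change 0.00 ± 0.06, SE). With library size alone in place of TMM it was higher in siUFBP1 at 0.80 (edgeR, adjusted p = 1.58e-10), at 84.3 ± 5.33 FPKM in siUFBP1 and 49.1 ± 3.51 FPKM in siNC (SD, n = 3 each), and with upper quartile scaling it was lower at -0.14 (edgeR, adjusted p = 0.0406). FPKM is a unit scaled to gene length and library total. The targeted transcript therefore gave no check of the labels. Every direction given here is that of libraries labelled siUFBP1 over libraries labelled siNC. Fat body markers took 47.8% to 49.3% of the counts in siUFBP1 and 74.4% to 74.9% in siNC. Cuticle markers summed to 1944 to 2027 CPM in siUFBP1 and 644 to 674.5 CPM in siNC, and midgut markers to 192.5 to 194.5 CPM in siUFBP1 and 37.5 to 41.7 CPM in siNC. With library size alone, the median log2 fold change of all genes moved by 0.80, reaching 0.92, so changes are relative to the scaling. In bulk samples, fewer cells of a type and less RNA per cell cannot be told apart.

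More of the factors were detected in siUFBP1 than in siNC. At least 1 count was found for 80, 75 and 91 of the 111 members in the siUFBP1 libraries and for 52, 57 and 51 in the siNC libraries. Thinned to the smallest library's total, the libraries gave 75.0 to 86.2 members in siUFBP1 and 50.9 to 56.3 in siNC. No count in siNC was found for 39 members, against 2 members with none in siUFBP1, and 70 had counts in both groups. Over all genes the counts were higher in siUFBP1 too, with 13447 to 14474 detected in siUFBP1 and 11335 to 11606 in siNC. The members' summed level was 181.5 ± 2.96 CPM in siUFBP1 and 112 ± 2.39 CPM in siNC (SD, n = 3 each), and the groups did not overlap. A few genes carried that sum: the 5 highest members held 40.1% of it in siUFBP1 and 53.6% in siNC.

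Most members were too scarce to test. A filter on low counts kept 45 of the 111, and the other 66 had at most 62 counts over all 6 libraries. Of the 45, 22 were above the count minimum in both groups, 19 in siUFBP1 but not siNC, 3 in siNC but not siUFBP1, and 1 in neither group by itself. The count minimum was applied on the scale of library size alone, not TMM. Members that entered through siUFBP1 alone were picked in part for a higher siUFBP1 level on that scale. Those that entered through siNC alone, pituitary homeobox 1, empty spiracles and Lhx3, were likewise picked in part for a higher siNC level. Counts over the 45 therefore describe the tested genes and not all members. Tests were edgeR's quasi-likelihood test, fitted on 10729 genes, with Benjamini-Hochberg adjustment over all of them and calls at an adjusted p of 0.05, named edgeR from here on.

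The test called 21 of the 45 members higher in siUFBP1 and 11 lower, and 13 did not pass. In the same test 40.0% of all genes were called higher and 28.4% lower, 68.4% in all, which the members' 46.7% and 24.4% lie near. The median log2 fold change was 0.44 over the tested members and 0.11 over all genes tested. Of the 45, 16 were called higher and 6 lower with at least a 2-fold change, against 22.7% higher and 5.11% lower over all genes tested. Of those 16, 14 had entered through siUFBP1 alone. At that minimum, the 22 members above the count minimum in both groups gave 2 higher and 3 lower. The 8400 genes of that kind gave 810 higher and 472 lower. The groups did not overlap for 33 of the 45, against 71.2% of all genes tested. Among the 22 members above the minimum in both groups, 6 were higher, 8 lower and 8 not passing, with a median of -0.30. All 8400 genes of that kind gave 31.2% higher and 35.3% lower, with a median of -0.04. Of the 19 that entered through siUFBP1 alone, 15 were higher and 4 did not pass. Calls among all 2109 genes that entered this way were not counted. The 15 of 19 therefore has no background beside it and is no result about these factors.

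**Figure D1:**
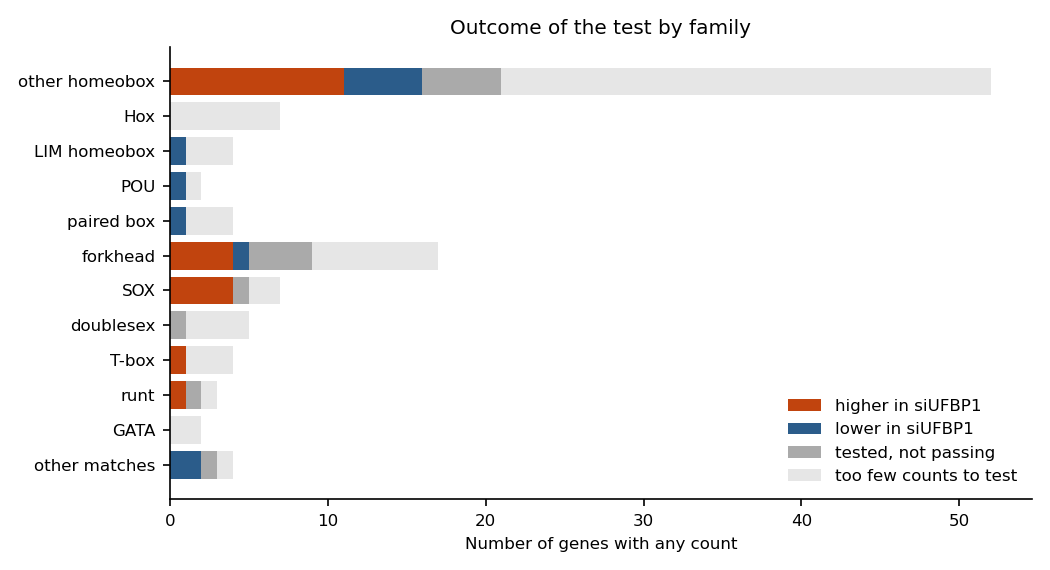
Bars give the number of members with any count in each family, split by the outcome of edgeR's test (higher in siUFBP1, lower in siUFBP1, tested but not passing, or too few counts to test). Other homeobox genes, with 52 members, and forkhead genes, with 17, hold most of the tested genes, while none of the 7 Hox and 2 GATA members could be tested.

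**Figure D2:**
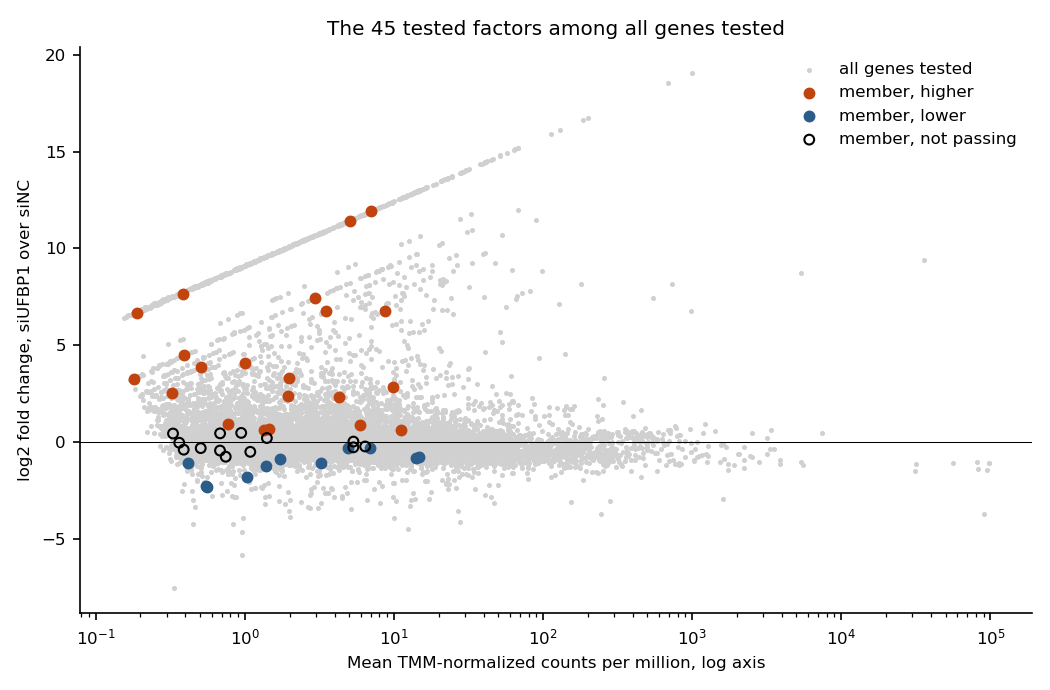
Each grey point is a gene tested, placed by its mean TMM-normalized CPM over the 6 libraries (log axis) and its log2 fold change, siUFBP1 over siNC; larger points are the 45 tested members, coloured by call. Points on the upper diagonal have no count in siNC, so their fitted height depends on the prior count and is no measured fold.

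Among homeobox genes outside the Hox, LIM, POU and paired box groups, 21 were tested, of which 11 were higher, 5 lower and 5 not passing. Over all genes tested, 40.0% were higher and 28.4% lower. Of the 21, 10 were above the count minimum in both groups, 9 in siUFBP1 only and 2 in siNC only. The higher genes TGIF2, SIX4, homothorax, Mohawk, araucan and zinc finger homeobox protein 3 were in that siUFBP1-only group. The homeobox protein TGIF2 (KWMTBOMO01693), a member of the TALE class whose Drosophila relatives achintya and vismay are needed for spermatogenesis, was among the higher ones. It had 9.90, 10.7 and 9.77 CPM in siUFBP1 and no count in any siNC library, at least 220.3-fold higher against a floor of 3 counts over the siNC group (edgeR, adjusted p = 1.26e-13). Markers of testis and sperm moved with it. The list has 101 genes, of which 96 had counts, and its summed level was 554.5 to 597 CPM in siUFBP1 and 40.9 to 43.9 CPM in siNC. In siUFBP1 5 of the 101 stood at 0, against 68 in siNC, and 66 of 69 tested were higher. Those at 0 in siNC include the sperm tail proteins tektin-4-like (KWMTBOMO16172, 41.2 CPM in siUFBP1) and tektin-B1 (KWMTBOMO03548, 23.2 CPM in siUFBP1). Their part in the levels of TGIF2 and the other factors was not tested.

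Both tested relatives of Drosophila sine oculis, SIX2 and SIX4, were higher. Such proteins have roles in eye and muscle formation. SIX2 (KWMTBOMO14484) stood at 7.29, 6.40 and 7.63 CPM in siUFBP1 and at 1.26, 1.64 and 1.34 CPM in siNC, with a log2 fold change of 2.33 ± 0.15 (SE; edgeR, adjusted p = 1.06e-10). SIX4 (KWMTBOMO14437) had 0.617, 1.18 and 0.503 CPM in siUFBP1 and no count in siNC, at least 15.2-fold higher (edgeR, adjusted p = 2.74e-05). Its lowest siUFBP1 library lay above the floor in every siNC library. Muscle markers, with 31 of 33 genes counted, summed to 2478 to 2492 CPM in siUFBP1 and 1465 to 1559 CPM in siNC, 15 of 25 tested being higher and 6 lower. At 0 were 3 of the 33 in siUFBP1 and 5 in siNC, among the 5 a tropomyosin beta chain-like gene (KWMTBOMO08453), and the part of these markers was not tested.

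Homothorax and extradenticle, TALE homeobox proteins that bind DNA together with Hox proteins, were both higher. In Drosophila, Homothorax carries Extradenticle into the nucleus. Homothorax (KWMTBOMO14979) had 3.73, 3.74 and 3.36 CPM in siUFBP1 and 0.373, 0.328 and 0.396 CPM in siNC, 9.88-fold higher with a log2 fold change of 3.29 ± 0.22 (SE; edgeR, adjusted p = 3.13e-10). A neighbouring homothorax model (KWMTBOMO14977), left out of the test, had 14, 8 and 29 counts in siUFBP1 and none in siNC, and was called higher with no filter on low counts (edgeR, adjusted p = 0.0004). Extradenticle (KWMTBOMO08651) had 14.4, 13.4 and 13.2 CPM in siUFBP1 and 9.14, 9.11 and 7.91 CPM in siNC, with a log2 fold change of 0.64 ± 0.08 (SE; edgeR, adjusted p = 1.7e-06). Each siUFBP1 library lay above each siNC library for both genes. Mohawk (KWMTBOMO02100), GBX-2-like (KWMTBOMO00719), araucan (KWMTBOMO00220) and zinc finger homeobox protein 3 (KWMTBOMO06745) averaged between 0.328 and 1.63 CPM in siUFBP1 and between 0.033 and 1.08 CPM in siNC. Both siNC counts of Mohawk lay in siNC replicate 3, and without that library it was at least 4.88-fold higher. The calls of GBX-2-like and zinc finger homeobox protein 3 depended on single libraries: GBX-2-like did not pass without siUFBP1 replicate 3 (0.59), siNC replicate 2 (0.56) or siNC replicate 3 (0.55), nor with upper quartile scaling (0.46) or DESeq2's Wald test (0.60), nor zinc finger homeobox protein 3 without siUFBP1 replicate 3 (0.88). Unc-4 (KWMTBOMO10182), E60-like (KWMTBOMO00935) and H17 (KWMTBOMO15637) and vab-15-like (KWMTBOMO15639), near each other by locus number, did not pass, with log2 fold changes from -0.51 to 0.47, of which vab-15-like passed as lower without siNC replicate 2 (-0.69) or with upper quartile scaling (-0.65), and unc-4 as higher with library size alone (1.27).

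Lower homeobox genes were led by prospero, a homeobox protein that drives the differentiation of neurons and glia in Drosophila. Prospero (KWMTBOMO15368) had 9.58, 11.9 and 10.8 CPM in siUFBP1 and 17.4, 19.9 and 19.1 CPM in siNC, with a log2 fold change of -0.80 ± 0.08 (SE; edgeR, adjusted p = 7.69e-08). The groups did not overlap, but with library size alone the value was -0.00 (edgeR, adjusted p = 0.997). By locus number it is the next member after fibroin heavy chain (KWMTBOMO15365), which was 667-fold higher. Cut (KWMTBOMO09977), a specifier of external sensory organs in Drosophila, had 1.88, 2.39 and 1.97 CPM in siUFBP1 and 4.76, 3.57 and 4.90 CPM in siNC, with a log2 fold change of -1.09 ± 0.16 (SE; edgeR, adjusted p = 1.15e-05). With library size alone cut was at -0.28 (edgeR, adjusted p = 0.117). Nervous system markers, with 15 of 20 genes counted, summed to 68.2 to 72.6 CPM in siUFBP1 and 76.6 to 82.5 CPM in siNC, 1 of 7 tested being higher and 2 lower. As a share of all counts they ran the other way, at 0.00883% to 0.00943% in siUFBP1 and 0.00585% to 0.00616% in siNC. At 0 were 7 of the 20 in siUFBP1 and 9 in siNC, synapsin (KWMTBOMO13089) among the 9, and the part of these markers was not tested.

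Caupolican and araucan, neighbouring genes of the Iroquois complex that patterns the body wall and wing veins in Drosophila, differed in direction. Caupolican (KWMTBOMO00221) had 0.970, 1.15 and 0.517 CPM in siUFBP1 and 1.45, 2.18 and 2.08 CPM in siNC, 2.16-fold lower (log2 fold change -1.22 ± 0.29, SE; edgeR, adjusted p = 0.00119). Araucan (KWMTBOMO00220) had 0.588, 0.694 and 0.422 CPM in siUFBP1 and 0, 0.246 and 0 CPM in siNC, 6.92-fold higher (log2 fold change 2.55 ± 0.70, SE; edgeR, adjusted p = 0.00352). All 6 siNC counts of araucan lay in siNC replicate 2, and without that library it was at least 7.31-fold higher against a floor of 3 counts. No library of either gene crossed into the other group's range. The difference between the 2 changes was not tested itself, and with library size alone caupolican was at -0.42 (edgeR, adjusted p = 0.158). For reads shared by such similar genes, the counting rule was not given in the sources used here, and either value may hold reads of the other.

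The largest relative decreases were in scarce genes. Pituitary homeobox 1 (KWMTBOMO07115), a relative of the vertebrate pituitary gene PITX1, had 0.118, 0.302 and 0.150 CPM in siUFBP1 and 0.793, 1.15 and 0.841 CPM in siNC, 4.89-fold lower (edgeR, adjusted p = 6.89e-05). Empty spiracles (KWMTBOMO15521), a head gap gene in Drosophila, had 0.235, 0.242 and 0.122 CPM in siUFBP1 and 0.606, 1.27 and 0.841 CPM in siNC, 4.54-fold lower (edgeR, adjusted p = 0.00013). The paired box protein Pax-1 (KWMTBOMO14913), the only tested member of its group, had 0.382, 0.604 and 0.422 CPM in siUFBP1 and 1.49, 1.68 and 1.63 CPM in siNC, 3.42-fold lower (edgeR, adjusted p = 1.82e-05). These 3 genes were also the members still called lower with library size alone. Of these, pituitary homeobox 1 and empty spiracles had entered the test through siNC alone, by a count minimum on that same scale. The LIM homeobox gene Lhx3 (KWMTBOMO02033), known from motor neurons and the pituitary of vertebrates, had 0.265, 0.211 and 0.299 CPM in siUFBP1 and 0.560, 0.616 and 0.544 CPM in siNC. Its log2 fold change was -1.10 ± 0.39 (SE; edgeR, adjusted p = 0.0191), which did not pass without siUFBP1 replicate 2 (-1.0) or without siNC replicate 2 (-1.05; edgeR, adjusted p = 0.0683 in both), with library size alone (-0.30), with no filter on low counts (-1.09), with the replicate number as a block (-1.13; edgeR, adjusted p = 0.0803) or with DESeq2's Wald test (-1.13).

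**Figure D3:**
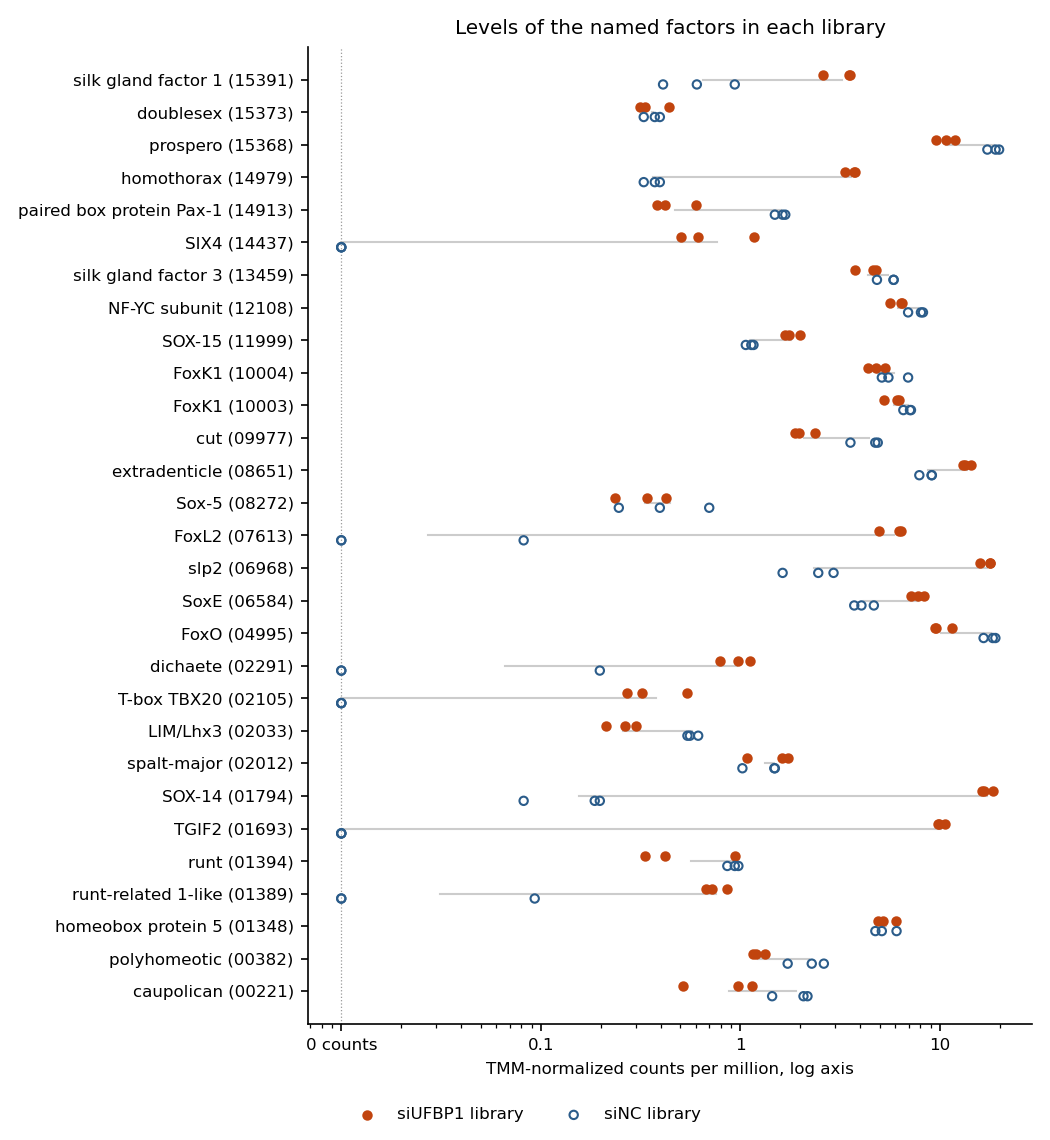
Rows are tested members chosen by the naming rule and reported here, with TMM-normalized CPM on a log axis in every library. Filled points are siUFBP1 and open points siNC. Rows run by locus number from bottom to top, not by size of change, and a grey line joins the group means. Libraries with no count are drawn at the dotted line, where all siNC points of TGIF2, SIX4 and TBX20 lie, while the siUFBP1 points of prospero and FoxO lie to the left of their siNC points.

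Of 9 tested forkhead genes, 4 were higher, 1 lower and 4 not passing, where 40.0% of all genes tested were higher and 28.4% lower. Of the 9, 4 were above the count minimum in both groups and 5 in siUFBP1 only. SGF1 and both genes named FoxL2, all higher, were in that siUFBP1-only group. SGF1 (KWMTBOMO15391), the fork head protein of the silk gland, had 2.62, 3.50 and 3.56 CPM in siUFBP1 and 0.606, 0.411 and 0.939 CPM in siNC. It was 4.95-fold higher (log2 fold change 2.35 ± 0.25, SE; edgeR, adjusted p = 1.38e-07), and the lowest siUFBP1 library stood well above the highest siNC library. Silk genes were among the largest changes. They were listed by product name, and nothing here shows that SGF1 binds each of them. Of 8 silk genes with counts, 6 were tested, with 5 higher and 1 not passing. Fibroin heavy chain (KWMTBOMO15365) had 78230, 75990 and 60780 CPM in siUFBP1 and 112, 111 and 99.4 CPM in siNC. Fibroin light chain (KWMTBOMO08464) averaged 10680 CPM in siUFBP1 and 25.6 CPM in siNC, 417-fold higher, and seroin 2 (KWMTBOMO02540), an antimicrobial silk protein, 132 CPM in siUFBP1 and 0.777 CPM in siNC, 170-fold higher. The 9 silk gland markers, which are the same genes with 1 that had no count, summed to 73250 to 91980 CPM in siUFBP1 and 669.8 to 694 CPM in siNC. Sericin 2 (KWMTBOMO06334) and a fibroin heavy chain-like gene (KWMTBOMO11380) had no count in siNC. The part of these markers in the level of SGF1 was not tested.

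A second fibrohexamerin stood apart from the other silk genes. Fibrohexamerin is a glycoprotein of the fibroin complex. The gene KWMTBOMO01001 had 1964, 2027 and 1884 CPM in siUFBP1 and 16.5, 18.4 and 18.9 CPM in siNC, 109-fold higher. The gene KWMTBOMO08316, described with the same name, had 536, 550.5 and 528 CPM in siUFBP1 and 540.2, 528 and 524 CPM in siNC, with a log2 fold change of 0.02 ± 0.03 (SE; edgeR, adjusted p = 0.532). With library size alone it was higher at 0.82 (edgeR, adjusted p = 5.82e-15). With upper quartile scaling it was lower at -0.12 (edgeR, adjusted p = 0.00122).

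The gene described as slp2-like (KWMTBOMO06968), a relative of the Drosophila segmentation gene sloppy paired 2, was the forkhead gene with the most CPM in siUFBP1. It had 17.8, 17.9 and 16 CPM in siUFBP1 and 2.94, 2.46 and 1.63 CPM in siNC, 7.36-fold higher with a log2 fold change of 2.86 ± 0.13 (SE; edgeR, adjusted p = 5.09e-13). A neighbour described as slp2 (KWMTBOMO06969) was too scarce to test, with 8, 15 and 14 counts in siUFBP1 and 4, 4 and 0 counts in siNC. Both genes named FoxL2, after a gene that maintains the vertebrate ovary, were higher. KWMTBOMO07613 had 6.41, 4.98 and 6.27 CPM in siUFBP1 and 0, 0.0821 and 0 CPM in siNC, the last from 2 counts, for a ratio of 198 with a 95% counting interval from 54.7 to 1638 (edgeR, adjusted p = 4.67e-12), or at least 83.3-fold without that siNC replicate 2. KWMTBOMO00215 had 1.82, 2.17 and 1.70 CPM in siUFBP1 and 0, 0.287 and 0 CPM in siNC, 19.8-fold higher (edgeR, adjusted p = 8.81e-07). All 7 siNC counts lay in siNC replicate 2, and without that library it was at least 25.6-fold higher against a floor of 3 counts. The direction of the ovary markers depended on the scaling. They summed to 46.7 to 47.6 CPM in siUFBP1 and 60.4 to 61.8 CPM in siNC, but took 0.00605% to 0.00658% of all counts in siUFBP1 and 0.00451% to 0.00474% in siNC. In the TMM scaling 1 of 7 tested was higher and 4 lower, and 12 of the 27 genes were at 0 in siUFBP1, against 19 in siNC. The part of these markers was not tested.

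FoxO (KWMTBOMO04995), the forkhead protein that insulin signalling keeps out of the nucleus, was lower. It had 11.6, 9.54 and 9.49 CPM in siUFBP1 and 19.0, 18.5 and 16.6 CPM in siNC, 1.77-fold lower with a log2 fold change of -0.84 ± 0.08 (SE; edgeR, adjusted p = 7.72e-08). No siUFBP1 library reached the siNC range, but with library size alone the value was -0.03 (edgeR, adjusted p = 0.749), and in FPKM, FoxO stood at 5.71 ± 0.553 in siUFBP1 and 5.89 ± 0.479 in siNC (SD, n = 3 each). Fat body markers, with 42 of 48 genes counted, summed to 346200 to 385600 CPM in siUFBP1 and 969600 to 1003000 CPM in siNC, with 30 of 34 tested lower and 1 higher. At 0 were 6 of the 48 in siUFBP1 and 8 in siNC, and the part of these genes in the level of FoxO was not tested. Genes known as FoxO targets went both ways, with 2 of 5 tested higher, 1 lower and 2 not passing. Both genes for phosphoenolpyruvate carboxykinase, the entry enzyme of gluconeogenesis, were higher, KWMTBOMO12094 at 0.67 ± 0.03 and KWMTBOMO12093 at 0.79 ± 0.07 (log2, SE). The translation repressor 4E-binding protein (KWMTBOMO01135) was lower at -0.45 ± 0.04 (log2, SE), a value that turned to 0.35 with library size alone. The insulin receptor (KWMTBOMO02890), a gene that FoxO activates in Drosophila, did not pass at 0.38 ± 0.18 (log2, SE), but was called higher without siUFBP1 replicate 3 (0.51; edgeR, adjusted p = 0.0342). Scaled by library size, it was likewise called higher at 1.18 (edgeR, adjusted p = 1.7e-06).

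Neither model of FoxK1, a forkhead protein tied to nutrient metabolism in mammals, passed. KWMTBOMO10003 had 5.26, 6.25 and 6.15 CPM in siUFBP1 and 7.18, 7.10 and 6.58 CPM in siNC (log2 fold change -0.23 ± 0.10, SE; edgeR, adjusted p = 0.0543), and was higher at 0.57 with library size alone (edgeR, adjusted p = 0.000105). KWMTBOMO10004 had 4.35, 5.34 and 4.8 CPM in siUFBP1 and 6.95, 5.13 and 5.54 CPM in siNC (log2 fold change -0.28 ± 0.13, SE; edgeR, adjusted p = 0.0609), and was higher at 0.52 with library size alone (edgeR, adjusted p = 0.000918). They are neighbours by locus number and may belong to the same gene. With upper quartile scaling both passed as lower, at -0.37 and -0.42 (edgeR, adjusted p = 0.0038 and 0.00744). The first also passed as lower without siNC replicate 3 (-0.27), and the second without siUFBP1 replicate 2 (-0.34) or siNC replicate 2 (-0.38).

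SGF3 (KWMTBOMO13459), also called POU-M1, is the POU domain protein that binds the sericin promoter, and it was the only POU member with enough counts. It had 3.76, 4.77 and 4.64 CPM in siUFBP1 and 4.85, 5.87 and 5.88 CPM in siNC. The groups were separated by a narrow gap, between 4.77 CPM in siUFBP1 and 4.85 CPM in siNC, and the log2 fold change was -0.32 ± 0.13 (SE; edgeR, adjusted p = 0.0304), which turned to 0.48 with library size alone (edgeR, adjusted p = 0.00237). It no longer passed without siUFBP1 replicate 1 (-0.24), siNC replicate 2 (-0.28) or siNC replicate 3 (-0.29), nor with DESeq2's Wald test (-0.33). Its known target sericin 1 (KWMTBOMO06216) had 11.0, 13.3 and 11.6 CPM in siUFBP1 and 0.140, 0 and 0.148 CPM in siNC, 125-fold higher. In the TMM scaling SGF1 was higher and SGF3 lower, whereas with library size alone both were higher, and the difference between their changes was not tested itself.

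Of 5 SOX genes tested, 4 were higher and 1 did not pass, where 40.0% of all genes tested were higher. Of the 5, 2 were above the count minimum in both groups, 2 in siUFBP1 only and 1 in neither group by itself. SOX proteins bind DNA through an HMG box. SOX-14 (KWMTBOMO01794) had 16.2, 18.6 and 16.8 CPM in siUFBP1 and 0.187, 0.0821 and 0.198 CPM in siNC, 111-fold higher with a log2 fold change of 6.79 ± 0.19 (SE; edgeR, adjusted p = 6.16e-16). SoxE (KWMTBOMO06584), whose Drosophila counterpart Sox100B acts in the testis, had 8.38, 7.76 and 7.21 CPM in siUFBP1 and 3.73, 4.68 and 4.05 CPM in siNC, with a log2 fold change of 0.89 ± 0.11 (SE; edgeR, adjusted p = 1.92e-06). SOX-15 (KWMTBOMO11999) was at 1.81 ± 0.170 CPM in siUFBP1 and 1.12 ± 0.0508 CPM in siNC (SD, n = 3 each), with a log2 fold change of 0.67 ± 0.21 (SE; edgeR, adjusted p = 0.00823). Dichaete (KWMTBOMO02291), a SOX gene of segmentation and the nervous system in Drosophila, had 0.970, 1.12 and 0.789 CPM in siUFBP1 and 0, 0 and 0.198 CPM in siNC, 14.5-fold higher (log2 fold change 3.87; edgeR, adjusted p = 3.31e-05). All 4 of its siNC counts lay in siNC replicate 3, and without that library it was at least 13.9-fold higher against a floor of 3 counts, while without siNC replicate 2 the log2 fold change was 3.24. None of these 4 higher genes overlapped between groups, as was so for 71.2% of all genes tested. Sox-5 (KWMTBOMO08272), with a second model of the same RefSeq gene left out, did not pass at -0.40 ± 0.45 (log2, SE).

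Runt domain proteins are known from Drosophila segmentation and, in the form of lozenge, from blood cell formation. The runt-related 1-like gene (KWMTBOMO01389) had 0.676, 0.725 and 0.857 CPM in siUFBP1 and 0.0933, 0 and 0 CPM in siNC, a ratio of 25.8 with a 95% counting interval from 6.98 to 216 (log2 fold change 4.50; edgeR, adjusted p = 1.27e-05). Without siNC replicate 1, which held both counts, it was at least 11.6-fold higher, and without siNC replicate 2 the log2 fold change was 3.90. Runt itself (KWMTBOMO01394) had 0.940, 0.332 and 0.422 CPM in siUFBP1 and 0.979, 0.862 and 0.939 CPM in siNC. The first siUFBP1 library of runt lay within the siNC range, and its change did not pass (-0.76 ± 0.37, SE; edgeR, adjusted p = 0.0784). It passed as lower without that library, siUFBP1 replicate 1 (-1.25; edgeR, adjusted p = 0.00898), with upper quartile scaling (-0.90; edgeR, adjusted p = 0.0401) and with limma-voom (-0.93; adjusted p = 0.0275), and was at 0.03 with library size alone. A runt-related 3 gene (KWMTBOMO01395) was too scarce to test. Hemocyte markers, with 37 of 40 genes counted, summed to 224 to 231 CPM in siUFBP1 and 317 to 332 CPM in siNC, 5 of 28 tested being higher and 19 lower. As a share of all counts they ran the other way, at 0.0292% to 0.0309% in siUFBP1 and 0.0242% to 0.0251% in siNC. Hemocytin (KWMTBOMO05444) was at 7.0 CPM in siUFBP1 and 18.5 CPM in siNC, 3 of the 40 were at 0 in siUFBP1 and 5 in siNC, and the part of these markers was not tested. The T-box gene TBX20 (KWMTBOMO02105), a heart gene in vertebrates and flies, had 0.323, 0.543 and 0.272 CPM in siUFBP1 and no count in siNC, at least 7.67-fold higher (edgeR, adjusted p = 0.000306).

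Hox, GATA and doublesex genes had few counts in both groups. The 7 Hox-like members held between 2 and 29 counts over all 6 libraries and none was tested. Proboscipedia (KWMTBOMO03353), a Hox gene of the mouthparts in Drosophila, had 7, 4 and 11 counts in siUFBP1 and 4, 3 and 0 counts in siNC. Of a run of 8 matched gene models that surrounds it by locus number (KWMTBOMO03353 to KWMTBOMO03363), 4 had any count. GATA-binding factor A-like (KWMTBOMO09366) had 0, 0 and 7 counts in siUFBP1 and 6, 4 and 3 counts in siNC, and factor C (KWMTBOMO12961) had 4, 0 and 8 counts in siUFBP1 and none in siNC. With no filter on low counts none of the Hox-like or GATA members passed, while 4 other members left out of the test did. They were doublesex, DMRT A2 and homothorax models, given with their own values, and the homeobox gene DBX1-B (KWMTBOMO10906), which had 7, 11 and 20 counts in siUFBP1 and none in siNC (edgeR, adjusted p = 0.00224).

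Doublesex was split over neighbouring gene models. Its model KWMTBOMO15373 had 0.441, 0.332 and 0.313 CPM in siUFBP1 and 0.373, 0.328 and 0.396 CPM in siNC, with overlapping groups and a log2 fold change of -0.04 ± 0.42 (SE; edgeR, adjusted p = 0.936). The model KWMTBOMO15371, left out of the test, had 0, 0 and 3 counts in siUFBP1 and 17, 18 and 0 counts in siNC, so siNC replicate 3 lay apart from the other siNC libraries. With no filter it was called lower (-4.47; edgeR, adjusted p = 0.00203). A doublesex-related gene, DMRT A2 (KWMTBOMO13080), had 9, 9 and 34 counts in siUFBP1 and none in siNC, and with no filter it was called higher (edgeR, adjusted p = 0.000438). Among genes known to respond to doublesex in the fat body, the female-biased storage protein 1 (KWMTBOMO13992) had 12790, 12910 and 12300 CPM in siUFBP1 and 163100, 168400 and 171100 CPM in siNC, 13.2-fold lower. The other 3 tested, all vitellogenin genes, did not pass and averaged under 1 CPM in both groups. The sex of the animals is not in the labels.

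Set against each other per length, the order of the factors named here differed between groups. In FPKM, slp2-like (17.8 ± 0.472) stood above SOX-14 (11.8 ± 0.856), extradenticle (11.5 ± 0.362), SoxE (9.70 ± 0.436) and TGIF2 (9.26 ± 0.383) (SD, n = 3). SOX-14 and extradenticle lay within each other's spread, and the spreads of SoxE and TGIF2 overlapped. In siNC the order began with NF-YC (6.12 ± 0.589), FoxO (5.89 ± 0.479), FoxK1 (4.98 ± 0.304), extradenticle (4.29 ± 0.403), prospero (3.98 ± 0.307) and homeobox protein 5 (3.77 ± 0.417) (SD, n = 3). There NF-YC and FoxO could not be separated by their spread, nor could extradenticle, prospero and homeobox protein 5. FoxK1 and extradenticle had spreads that just met. In CPM, homeobox protein 5 (KWMTBOMO01348) did not pass, with a log2 fold change of 0.02 ± 0.12 (SE; edgeR, adjusted p = 0.909), though with library size alone it was at 0.82 (edgeR, adjusted p = 1.95e-06).

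The zinc finger homeotic gene spalt-major (KWMTBOMO02012), which patterns trachea and wing in Drosophila, did not pass at 0.20 ± 0.24 (log2, SE), though with library size alone it was higher at 1.00 (edgeR, adjusted p = 0.000461). Both accidental matches with enough counts were lower in the TMM scaling. Polyhomeotic-proximal-like (KWMTBOMO00382), of the Polycomb silencing complex, was at -0.87 ± 0.21 (log2, SE; -0.07 with library size alone), and NF-YC (KWMTBOMO12108) at -0.32 ± 0.10 (log2, SE; 0.48 with library size alone, and -0.27 and not passing without siNC replicate 2).

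Proteins that act together with these factors went both ways. Of 7 tested cofactors, 2 were higher, 3 lower and 2 not passing, with a median log2 fold change of -0.50. LIM domain-binding protein 2 (KWMTBOMO14816), the partner of LIM homeobox proteins, had 5.91, 5.83 and 5.77 CPM in siUFBP1 and 3.22, 3.00 and 3.16 CPM in siNC (log2 fold change 0.90 ± 0.12, SE). U-shaped (KWMTBOMO01701), which binds GATA factors, had 6.32, 5.65 and 6.77 CPM in siUFBP1 and 11.8, 12.4 and 11.2 CPM in siNC (log2 fold change -0.90 ± 0.09, SE). The corepressor groucho (KWMTBOMO12620) was at 6.19 ± 0.554 CPM in siUFBP1 and 11.5 ± 1.20 CPM in siNC (SD, n = 3 each; log2 fold change -0.88 ± 0.10, SE). Groups did not overlap for these 3 genes, as was so for 71.2% of all genes tested, and neither decrease passed with library size alone. The chromatin remodelling subunit osa (KWMTBOMO04027) was at -0.50 ± 0.05 (log2, SE), which turned to 0.30 with library size alone. Big brother (KWMTBOMO01960), the partner of runt proteins, was higher at 1.11 ± 0.40 (log2, SE; edgeR, adjusted p = 0.02). It did not pass without siUFBP1 replicate 1 (0.97), siUFBP1 replicate 3 (1.06), siNC replicate 2 (0.96) or siNC replicate 3 (1.09), nor with the replicate number as a block (1.08) or DESeq2's Wald test (1.11).

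Chorion genes, the eggshell genes that GATA factors regulate in the ovary, were mostly untested. Of 11 with counts 3 were tested, 1 higher and 2 lower. Chorion early B (KWMTBOMO00761) had 0.353, 0.302 and 0.272 CPM in siUFBP1 and no count in siNC. A class CA gene (KWMTBOMO00739) had 3.62, 3.65 and 3.97 CPM in siUFBP1 and 7.28, 5.38 and 7.76 CPM in siNC, and a class CB gene (KWMTBOMO07500) was 4.91-fold lower. The groups did not overlap for any of the 3, as was so for 71.2% of all genes tested. Of the 3, 1 was above the count minimum in both groups, 1 in siUFBP1 only and 1 in siNC only. The class CA change did not pass with library size alone (-0.03). The single gene of the POU and SOX target list with counts, which encodes PBAN-type neuropeptides, was too scarce to test.

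**Figure D4:**
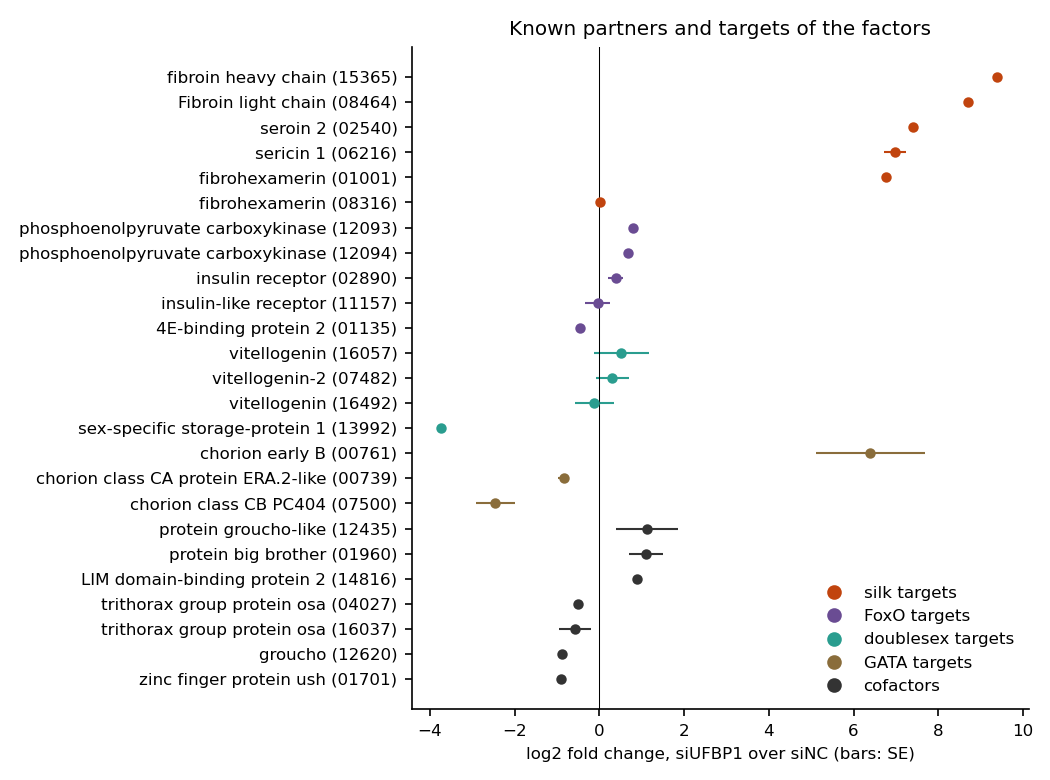
Points give the log2 fold change, siUFBP1 over siNC, of each tested gene on the partner and target lists, with bars for the SE, coloured by list. Silk genes lie far to the right at 6.77 to 9.38 except the second fibrohexamerin at 0.02, while targets of FoxO and the cofactors lie within about 1 of zero.

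Other families of DNA-binding proteins were counted the same way for comparison. Zinc finger proteins gave 117 higher and 27 lower of 233 tested (median log2 fold change 0.37). Basic helix-loop-helix genes gave 5 higher of 5 tested, basic leucine zipper genes 2 higher and 5 lower of 8, and nuclear receptors 3 higher and 3 lower of 10. Over all genes tested, 40.0% were called higher and 28.4% lower. Of the 233 zinc finger genes, 41 had entered through siUFBP1 alone. So had 2 of the 5 basic helix-loop-helix genes, 4 of the 10 nuclear receptors and none of the 8 basic leucine zipper genes. No test of a difference between these families and the homeobox, forkhead and other members was made.

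The count of lower members depended on the scaling. With library size alone 30 members were higher and 3 lower, all 21 higher members staying higher, while of the 11 lower members 3 stayed lower, 6 did not pass and 2, SGF3 and NF-YC, became higher. With upper quartile scaling 20 were higher and 15 lower, and the 11 lower members were still lower. DESeq2 size factors, and TMM factors computed without the bulk products of silk gland, fat body and testis, each gave 21 higher and 11 lower.

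**Figure D5:**
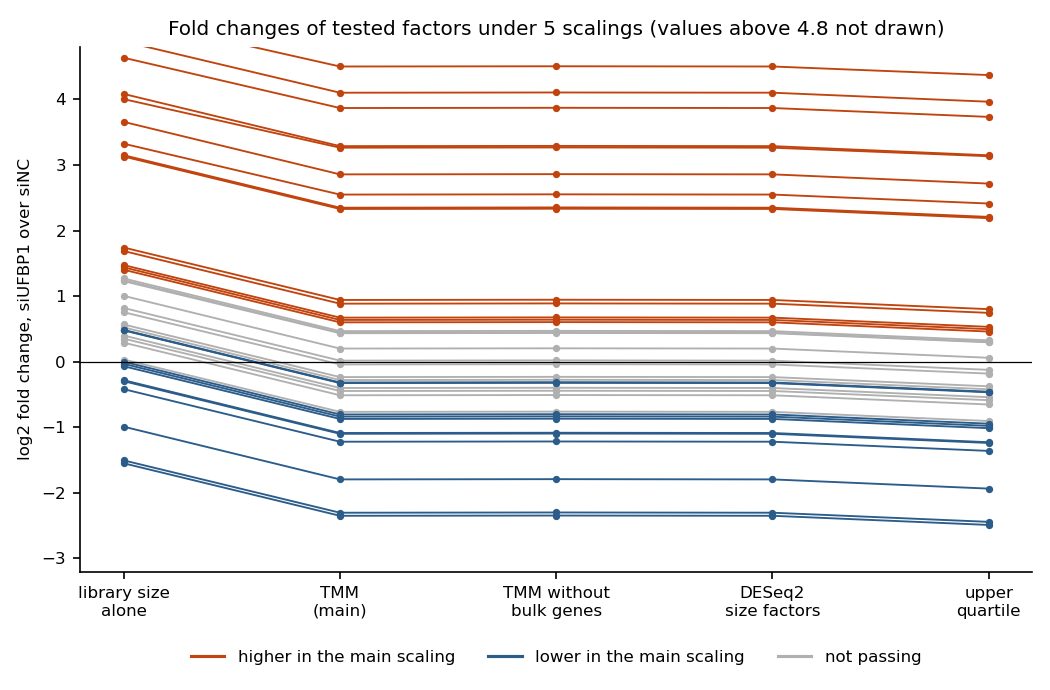
Each line is a tested member and each position a scaling, with the log2 fold change, siUFBP1 over siNC, on the vertical axis and colours for the call under TMM; values above 4.8 are not drawn. The lines shift nearly in parallel, up with library size alone and down with upper quartile scaling, so lower members near -0.32 cross 0 with library size alone while the higher members stay above it.

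The authors' deposited table holds its own comparison for 30 of the 111 members, of which it calls 11 up, 3 down and 16 neither. Per its header, a call there needs at least a 2-fold change and a stricter adjusted p than the edgeR calls here. The counts of calls therefore follow different rules. Over all genes that table calls 20.4% up and 4.85% down. Its fold changes had the same sign as the edgeR values for all 30 members. In the authors' deposited table, SGF1 has a log2 fold change of 2.33 and is called up. FoxO has -0.84 there with neither call, because that change is under 2-fold. Its adjusted p in that table is 6.91e-16 (the authors' DESeq2).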

How the data were processed

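RNA was measured in 6 libraries, grouped by their titles. Per the labels, libraries were made from total RNA with a SMARTER mRNA-Seq kit, and per the submitters' processing notes, fastp and HISAT2 were used. How reads were counted, with what treatment of strand and shared reads, and against which build was not given in the sources used here. Per the file headers, the deposited table gives raw read counts and FPKM values per gene. FPKM, by the unit's name, is the authors' scaling for length and for the library's total. The authors' own log2 fold changes and adjusted p-values stand in the same deposited table. Gene names are those of the deposited table. Of 67 members with a silkworm gene number, 65 were found in a RefSeq gene table (assembly ASM3026992v2).

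Of 16877 gene models, filterByExpr (minimum count 10) kept 10729. The 6148 left out held 0.0479% of the counts. TMM factors were 1.28, 1.30 and 1.38 in siUFBP1 and 0.763, 0.767 and 0.746 in siNC. The fit, edgeR's quasi-likelihood test, had no term besides group and was tested on simulated data. Standard errors are the absolute log2 fold change over the square root of F. Bounds use 3 siNC counts over the group, and 1 to 3 counts give a ratio with an exact binomial 95% interval. Both cover counting error only.

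The members, gene lists and marker lists were chosen with earlier results of these data known. Genes were named by a rule: UFBP1, the silk gland factors, fork head, POU, doublesex, GATA and runt members that were tested, up to 5 of highest CPM per family, the 8 largest increases and 8 largest decreases among called members of at least 1 CPM, members of at least 0.5 CPM with no siNC count, and up to 4 of smallest adjusted p per list. All other genes named were chosen after their values were seen. Results of 2 gene models that the rule names are not reported here. Alternatives were other scalings, filters and tests (DESeq2, limma-voom, or limma-trend on FPKM with a pseudocount of 1 or 0.1), a replicate block, a 2-fold minimum and leaving out each library. Versions were edgeR 4.0.16, DESeq2 1.42.0 and limma 3.58.1 in R 4.3.3.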

Additional observations from a re-analysis of the deposited data

How the results depend on the processing

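With library size alone, all genes gave 8603 higher and 453 lower (4293 and 3043 with TMM), members 3 lower, families with more lower than higher members 1 (4 with TMM), and cofactors and targets 18 higher and 2 lower (10 and 7 with TMM). With limma-trend on FPKM at a pseudocount of 1 or 0.1, which tested 20 members, all genes gave 6625 and 6601 higher and 406 lower in both, and members, such families and cofactors and targets each gave 1 lower in both. With a 2-fold minimum, 2436 genes were higher and 548 lower, 6 members were lower, 2 families had more lower members, and 2 cofactors and targets were lower. DESeq2's Wald test left 2 such families. The 4 with TMM were LIM homeobox, POU and paired box, each with 1 tested member, and the other matches, whose 2 lower genes matched by accident of wording. Leaving out each library gave 19 to 23 members higher and 10 to 12 lower, 2 to 5 families with more lower members (2 without siNC replicate 2), 9 to 11 cofactors and targets higher and 7 lower, and 3982 to 4255 genes higher and 2788 to 2918 lower.

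Directions reversed with library size alone, limma-trend at pseudocount 1 and limma-trend at 0.1, given in that order, for SGF3 (KWMTBOMO13459: 0.48, 0.34 and 0.43), FoxK1 (KWMTBOMO10003: 0.57, 0.46 and 0.53; KWMTBOMO10004: 0.52, 0.39 and 0.49), NF-YC (KWMTBOMO12108: 0.48, 0.40 and 0.45), osa (KWMTBOMO04027: 0.30, 0.22 and 0.27) and the 4E-binding protein (KWMTBOMO01135: 0.35, 0.32 and 0.32). The median of all genes moved by 0.80, 0.57 and 0.71 in these settings. Of the alternatives' values for single named genes, 732 kept direction and call, 15 (of 6 genes) changed sign without passing in either setting, 29 lost the call, 16 gained it and 18 reversed.

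The replicate numbers are shared between groups, but same-numbered libraries did not deviate together (correlations of 0.024, -0.019 and 0.018). No shared effect was therefore seen, but the labels do not say whether the numbers pair the samples, and these correlations cannot settle it. With the replicate block 21 members were higher and 10 lower, Lhx3 (KWMTBOMO02033) being the lower one lost, and 4019 genes were higher and 2823 lower. The cause of calls lost without a library was not tested. Low counts limit the 66 members left out: with no filter, 24 members were higher and 11 lower.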
